A study of Mus musculus with 8 samples.

Results

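The genes described here are 9 components of the insulin signalling pathway, from the receptor to the proteins that act on glucose transport, lipolysis and transcription: Insr, Irs1, Irs2, Irs3, Pik3r1, Akt2, Slc2a4, Pde3b and Foxo1. They were taken by gene symbol from a table of 13839 genes measured in mouse aortic tissue. All 9 were present, and all 9 were among the 13701 genes with enough counts to be tested. RNA from 5 control libraries was compared with RNA from 3 libraries of a thoracic aortic dissection (TAD) model. The TAD mice ate a normal diet and from an age of 3 weeks received beta-aminopropionitrile, which blocks the lysyl oxidase enzymes needed to crosslink elastin and collagen, in their drinking water for 4 weeks (1 g/kg per day). At 7 weeks of age an osmotic pump delivering angiotensin II at 1 µg/kg per min was placed under the skin, and the mice were killed 24 h later. How the controls were treated, the strain and the sex are not given in the sources used here. Whether each library came from a separate mouse is also not given, so p-values refer to the spread between libraries, which may be technical in part.

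Insulin binds a receptor tyrosine kinase that phosphorylates insulin receptor substrates. The substrates recruit phosphoinositide 3-kinase (PI3K), which activates the kinase AKT. In fat cells AKT2 brings the glucose transporter GLUT4 (Slc2a4) to the surface, phosphodiesterase 3B lowers cyclic AMP and so restrains lipolysis, and phosphorylation keeps the transcription factor FOXO1 out of the nucleus. The outer layer of the aorta is surrounded by perivascular fat, which in rodents around the thoracic aorta resembles brown fat.

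The labels call the samples aortic tissue and do not name fat. Levels are given in CPM, counts per 1000000 of the library total after TMM scaling between libraries. All 12 adipocyte marker genes (among them Adipoq, Plin1 and Fabp4) were in the table. Their summed level was 17702 to 18750 CPM in the controls and 7697 to 12352 CPM in TAD. The 10 brown fat markers summed to 3236 to 5326 CPM in the controls and 1153 to 2481 CPM in TAD. Muscle transcripts varied within both groups: 7 cardiomyocyte markers summed to 45.3 to 19120 CPM in the controls and 39.2 to 12929 CPM in TAD, and 8 smooth muscle markers to 2557 to 12121 and 826 to 4904 CPM. The 6 neural markers measured summed to 1983 CPM in TAD 2 and to at most 197 CPM in any other library. Macrophage markers (10 genes, 201 to 336 CPM in the controls and 609 to 923 CPM in TAD) and neutrophil markers (8 genes, 8.20 to 124 CPM and 428 to 1270 CPM) were higher in TAD. The 8 endothelial markers summed to 1273 to 1749 CPM in the controls and to 918 to 1246 CPM in TAD, without overlap. The 8 fibroblast markers summed to 1469 to 4508 CPM in the controls and to 820 to 7652 CPM in TAD. Library totals ran from 12042971 to 15039132 counts.

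Most insulin signalling transcripts were lower in TAD, among them those of the receptor, of AKT2 and of GLUT4. In the edgeR quasi-likelihood test with Benjamini-Hochberg adjustment over all genes tested, 7 of the 9 genes fell (adjusted p below 0.05): Insr, Irs1, Irs3, Akt2, Slc2a4, Pde3b and Foxo1. Over all genes tested, 11.8% were called lower. None of the 9 was called higher by edgeR or DESeq2, or at an unadjusted p below 0.05, against 15.2% of all genes, and all 9 log2 fold changes were negative. The levels of 7 genes did not overlap between the groups, with every TAD library below every control, as was the case for 15.0% of all genes. The median log2 fold change of the 9 genes was -1.11, against 0.04 over all genes tested. The mean CPM was 14.5-fold lower for Irs3, the gene with the largest change among the 9, and the smallest change was that of Insr. In bulk tissue, fewer cells of a type and less RNA per cell cannot be told apart.

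**Figure D1:**
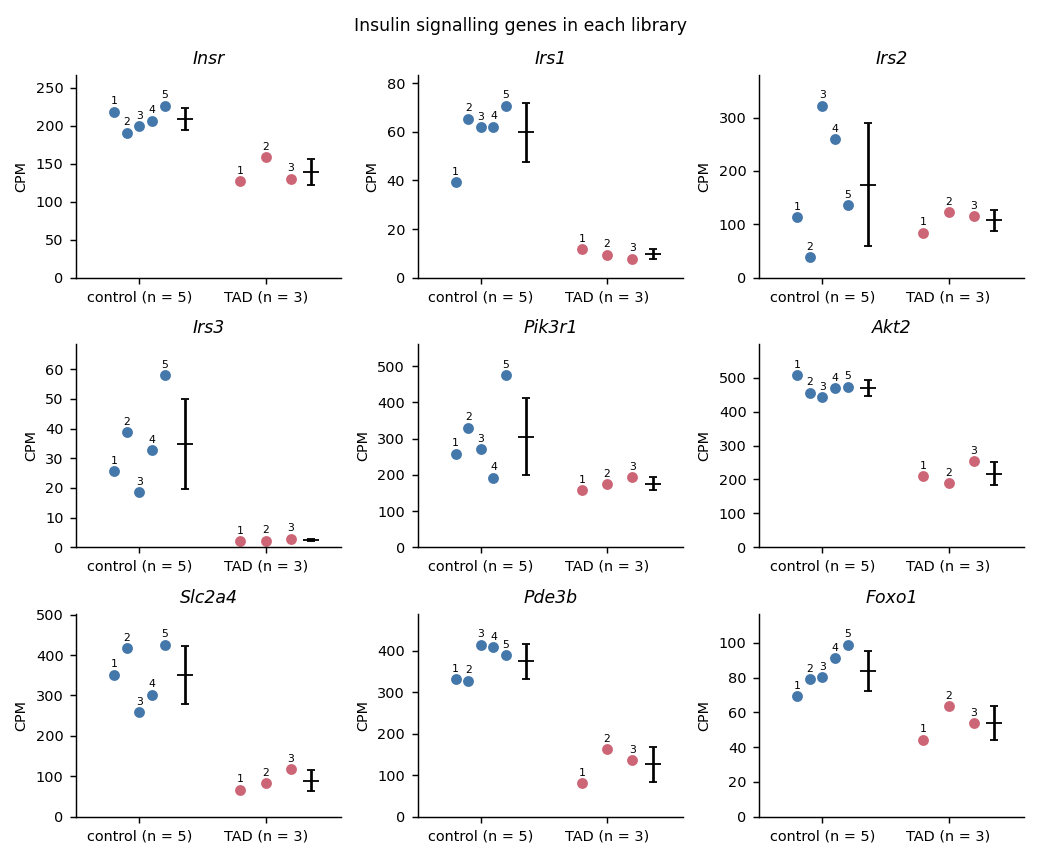
Level of each of the 9 insulin signalling genes in every library, in CPM (y axes start at 0), with the library number beside each point and the mean ± SD of each group as a black bar. The 3 TAD libraries lie below all 5 controls for every gene except Irs2 and Pik3r1; the controls of Irs2 are spread from 38.5 to 322.5 CPM.

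The receptor gene Insr (ENSMUSG00000005534, minus strand of chr8:3122061-3279617 on GRCm38 in the GENCODE M21 annotation, as are the coordinates that follow) had 218.5, 191.1, 199.8, 206.6 and 226.6 CPM in controls 1 to 5 and 127.5, 158.8 and 130.5 CPM in TAD 1 to 3. The controls were close together, with a highest level 1.19 times the lowest, and all 3 TAD libraries were below them. Insr fell from 209 ± 14.2 (SD, n = 5) to 139 ± 17.3 CPM (SD, n = 3), a log2 fold change of -0.59 ± 0.13 (SE; adjusted p = 0.0118, edgeR). The call was lost without control 1 and TAD 1, the libraries with the most cardiomyocyte RNA (-0.51, adjusted p = 0.0807, edgeR). Its nearest relative Igf1r, the receptor for insulin-like growth factors, had 67.9 ± 15.4 CPM in the controls and 86.2 ± 23.1 CPM in TAD, with overlapping groups (log2 fold change 0.34 ± 0.23, adjusted p = 0.296, edgeR).

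Of the 3 substrates, Irs1 and Irs3 fell and Irs2 did not pass the test. Irs1 encodes the classical substrate of muscle and fat (ENSMUSG00000055980, minus strand of chr1:82233101-82291416). It had 39.2, 65.4, 61.9, 62.1 and 70.8 CPM in the controls and 11.8, 9.5 and 7.8 CPM in TAD. Control 1 stood below the other controls, and had 3.34 times the level of the highest TAD library. The mean fell from 59.9 ± 12.1 to 9.68 ± 1.97 CPM, 6.19-fold (log2 fold change -2.63 ± 0.24, adjusted p = 0.0004, edgeR). The value is uncertain in one respect, since 30.9% of the Irs1 exon bases overlap Gm9747 on the opposite strand and the sources used here do not state whether strand was used in counting.

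Irs3 encodes a substrate found mainly in rodent fat cells (ENSMUSG00000047182, minus strand of chr5:137643031-137645714). It was the least counted of the 9 genes, with 321, 519, 250, 447 and 756 reads in the controls and 25, 34 and 44 reads in TAD. These are 25.6, 38.9, 18.6, 32.8 and 58.1 CPM against 2.1, 2.3 and 2.9 CPM, so that the lowest control had 6.45 times the level of the highest TAD library. Irs3 had the largest change of the 9 genes, from 34.8 ± 15.1 to 2.40 ± 0.44 CPM (log2 fold change -3.85 ± 0.42, adjusted p = 0.0006, edgeR). None of its exon bases overlap another annotated gene.

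Irs2, a substrate that also acts in liver, was the most variable of the 9 in the controls (ENSMUSG00000038894, minus strand of chr8:10984681-11008458). Its levels were 113.4, 38.5, 322.5, 260.0 and 136.1 CPM in the controls and 84.6, 122.9 and 114.9 CPM in TAD. The TAD libraries lay inside the range of the controls, which spanned 8.39-fold. The means of 174 ± 115 and 107 ± 20.2 CPM did not differ beyond that spread (log2 fold change -0.70 ± 0.58, adjusted p = 0.406, edgeR).

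The RefSeq sequences just upstream of the 3 substrate genes (GRCm38.p6) are shown because these genes share a function and 2 of the 3 fell. All 3 lie on the minus strand and are printed 5′ to 3′ in the direction of transcription, ending at the base before the RefSeq start: chr1:82291440-82291689 for Irs1, chr8:11008930-11009179 for Irs2 and chr5:137645715-137645964 for Irs3. Capitals mark every match, on either strand, to GTAAACA (forkhead factors, such as FOXO1), TGTTTTG (the core of the insulin response element, added to the search after the sequences had been read), TATAAA (bound by the general transcription machinery), GGGCGG (the GC box of Sp1-type factors), CACGTG (the E-box of helix-loop-helix factors) and DR1 (the repeat bound by PPARG, searched as AGGTCA repeated with a gap of 1 base).
Irs1: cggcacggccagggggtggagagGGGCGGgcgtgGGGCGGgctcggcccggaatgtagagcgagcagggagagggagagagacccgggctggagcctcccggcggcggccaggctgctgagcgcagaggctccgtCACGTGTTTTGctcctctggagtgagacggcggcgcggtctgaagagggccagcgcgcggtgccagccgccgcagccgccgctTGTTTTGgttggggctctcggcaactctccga
Irs2: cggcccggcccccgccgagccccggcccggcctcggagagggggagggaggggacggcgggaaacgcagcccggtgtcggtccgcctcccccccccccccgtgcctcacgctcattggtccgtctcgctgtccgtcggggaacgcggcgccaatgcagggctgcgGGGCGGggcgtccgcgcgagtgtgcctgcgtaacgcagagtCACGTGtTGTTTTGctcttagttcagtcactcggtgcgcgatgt
Irs3: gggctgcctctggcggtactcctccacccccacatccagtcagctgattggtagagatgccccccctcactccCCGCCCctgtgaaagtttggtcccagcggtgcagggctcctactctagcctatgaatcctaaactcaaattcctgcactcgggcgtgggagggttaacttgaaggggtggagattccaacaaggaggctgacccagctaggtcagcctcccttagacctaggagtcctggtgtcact
Counted back from -1 at the base before the start, Irs1 held TGTTTTG at -111 and -32, CACGTG at -115 (overlapping the first of these) and GGGCGG at -227 and -216. Irs2 held TGTTTTG at -37, CACGTG at -44 and GGGCGG at -85. Irs3 held 1 match, GGGCGG at -177 on the other strand, printed as CCGCCC. Among 32851 RefSeq promoter windows of the same length, TGTTTTG occurred in 5.56%, CACGTG in 6.02%, GGGCGG in 32.7%, TATAAA in 12.4%, GTAAACA in 3.17% and DR1 in 0.0335%. The windows of Irs1 and Irs2 had a GC content of 72.4% and 72.8%, against 58.4% for Irs3 and a median of 52.4% over all windows. A match describes the letters only. RefSeq windows were found for 6 of the 9 genes, these 3 and Akt2, Pik3r1 and Foxo1.

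Pik3r1 encodes the regulatory subunits of PI3K that bind the substrates (ENSMUSG00000041417, minus strand of chr13:101680563-101768217). It had 258.5, 330.5, 271.7, 192.5 and 475.8 CPM in the controls and 158.8, 174.8 and 193.9 CPM in TAD. The groups overlapped by a single pair, TAD 3 lying just above control 4. The means were 306 ± 107 and 176 ± 17.6 CPM (log2 fold change -0.80 ± 0.28, adjusted p = 0.0642, edgeR). The threshold was crossed in 2 of 18 alternatives, by DESeq2 (adjusted p = 0.0200) and without control 4 (-0.93, adjusted p = 0.0360, edgeR).

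Akt2, the AKT kinase that acts on glucose transport (ENSMUSG00000004056, plus strand of chr7:27591552-27640826), varied least of the 9 in the controls, at 508.3, 456.8, 442.2, 469.0 and 474.5 CPM. In TAD it had 209.2, 188.5 and 254.8 CPM, all far below the controls. It fell from 470 ± 24.7 to 218 ± 33.9 CPM, 2.16-fold (log2 fold change -1.11 ± 0.15, adjusted p = 0.0014, edgeR). The ubiquitous Akt1 had 173 to 227 CPM in the controls and 203 to 285 CPM in TAD, with overlapping groups. Its log2 fold change was 0.41 ± 0.15 (adjusted p = 0.0853, edgeR). Akt1 was called higher by DESeq2 (0.39, adjusted p = 0.0479) and without TAD 2 (0.54, adjusted p = 0.0303, edgeR). It was also called higher without controls 1 and 2 and TAD 2 (0.62, adjusted p = 0.0371, edgeR).

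At the end of the chain, Slc2a4, which encodes the insulin-responsive transporter GLUT4 (ENSMUSG00000018566, minus strand of chr11:69942539-69948188), had 351.6, 417.3, 257.9, 302.4 and 425.9 CPM in the controls and 67.2, 83.4 and 117.9 CPM in TAD. All 3 TAD libraries were far below the lowest control. Slc2a4 fell from 351 ± 72.5 to 89.5 ± 25.9 CPM, 3.92-fold (log2 fold change -1.97 ± 0.26, adjusted p = 0.0013, edgeR). GLUT4 is also made by heart and skeletal muscle, whose RNA differed between libraries. In the 3 libraries with the least cardiomyocyte RNA (71.2, 45.3 and 39.2 CPM summed in control 3, control 5 and TAD 3), Slc2a4 stood at 258, 426 and 118 CPM. The part of muscle RNA in the Slc2a4 level was not tested. Of the 10 skeletal muscle markers, Ckm was in the table and the others were not analysed here.

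Pde3b, the phosphodiesterase through which insulin restrains lipolysis (ENSMUSG00000030671, plus strand of chr7:114415281-114539251), had 330.7, 327.6, 414.3, 409.0 and 389.6 CPM in the controls and 80.4, 162.9 and 136.8 CPM in TAD. TAD 1 was the lowest library, and the highest of the TAD libraries, TAD 2, was below every control. Pde3b fell from 374 ± 42.2 to 127 ± 42.1 CPM, 2.95-fold (log2 fold change -1.56 ± 0.24, adjusted p = 0.0025, edgeR).

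Foxo1, the transcription factor restrained by AKT (ENSMUSG00000044167, plus strand of chr3:52268336-52353221), had 69.5, 78.9, 80.5, 91.3 and 99.0 CPM in the controls and 44.4, 63.8 and 53.9 CPM in TAD. The gap between the lowest control and the highest TAD library was narrow. Foxo1 fell from 83.8 ± 11.5 to 54.0 ± 9.70 CPM (log2 fold change -0.63 ± 0.16, adjusted p = 0.0223, edgeR). The call was lost without control 4 (-0.60, adjusted p = 0.0532, edgeR), without TAD 1 (-0.52, 0.0785) and without TAD 3 (-0.63, 0.0512), and it held in 13 of 18 alternatives. Of its exon bases, 7.78% overlap Gm20402 on the opposite strand.

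Adipocyte transcripts as a whole were lower in TAD, so the 9 genes were also read against them. The geometric mean CPM of 6 reference genes (Adipoq, Plin1, Cidec, Plin4, Lipe and Pparg) was 597 ± 42.9 in the controls (542 to 647) and 282 ± 44.8 in TAD (236 to 326), 2.12-fold lower. The reference genes did not move alike: Adipoq (-1.55), Plin1 (-1.59), Pparg (-1.41), Cidec (-0.96) and Lipe (-0.87) fell on the log2 scale, while Plin4 had -0.09 (adjusted p = 0.81, edgeR). The Lipe call was lost without TAD 1 (adjusted p = 0.0551, edgeR), and 15.6% of the Lipe exon bases overlap 4732471J01Rik on the opposite strand. With libraries scaled so that this reference was equal in all, the median log2 fold change of all genes became 1.14.

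On that scale Irs3 and Irs1 remained lower in TAD. Irs3 stood at 4.51, 7.18, 2.97, 5.45 and 8.97% of the reference in the controls and at 0.724, 0.692 and 1.22% in TAD. The groups were apart, and its log2 fold change was -2.73 ± 0.42 (adjusted p = 0.0004, edgeR). Irs1 stood at 6.91, 12.1, 9.87, 10.3 and 10.9% in the controls and at 4.14, 2.91 and 3.31% in TAD, again without overlap (-1.54 ± 0.23, adjusted p = 0.0004, edgeR). Both were called lower in all 15 alternatives tried on this scale, between -3.04 and -2.17 for Irs3 and between -1.80 and -0.94 for Irs1. Slc2a4 was the third gene called lower (-0.84 ± 0.31, adjusted p = 0.0347, edgeR), but its groups overlapped, from 41.1 to 77.0% of the reference in the controls and from 23.7 to 50.0% in TAD. Its call held in 4 of 15 alternatives, with values from -1.26 to -0.30. It was lost without control 1, 2 or 5 and without TAD 1 or 2 (adjusted p = 0.0568 to 0.123, edgeR). The Slc2a4 call was also lost with 12 adipocyte markers as reference (-0.67, adjusted p = 0.111, edgeR). The same held with Adipoq alone (-0.42, 0.179) and with Plin1 alone (-0.30, 0.365). Thus 3 of the 9 genes were called lower on this scale, against 1.07% of all genes.

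None of the other 6 genes was called lower on the adipocyte scale (edgeR), nor at an unadjusted p below 0.05. Akt2 stood at 79.1 ± 7.83% of the reference in the controls and 79.9 ± 25.6% in TAD, with a log2 fold change of 0.01 ± 0.22 (adjusted p = 0.96, edgeR). Pde3b had -0.46 ± 0.23 (adjusted p = 0.103), Pik3r1 0.32 ± 0.28 (0.329) and Irs2 0.44 ± 0.53 (0.476), none past the threshold in edgeR. Without TAD 3, Pde3b was called lower (-0.68, adjusted p = 0.0349, edgeR). With Adipoq alone as reference, Akt2 (0.45, adjusted p = 0.0419, edgeR) and Pik3r1 (0.75, 0.0329) were called higher. Pik3r1 was also called higher with Plin1 alone (0.88, adjusted p = 0.0193, edgeR). Insr and Foxo1 were called higher relative to the reference, with log2 fold changes of 0.50 ± 0.15 (adjusted p = 0.0121, edgeR) and 0.47 ± 0.16 (adjusted p = 0.0285, edgeR), against 68.8% of all genes called higher on this scale. These 2 log2 fold changes were below the median of all genes, and the Foxo1 call was lost without control 1 or 3 and without TAD 2 or 3 (adjusted p = 0.0518 to 0.107, edgeR). The errors leave out the uncertainty of the reference itself.

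**Figure D2:**
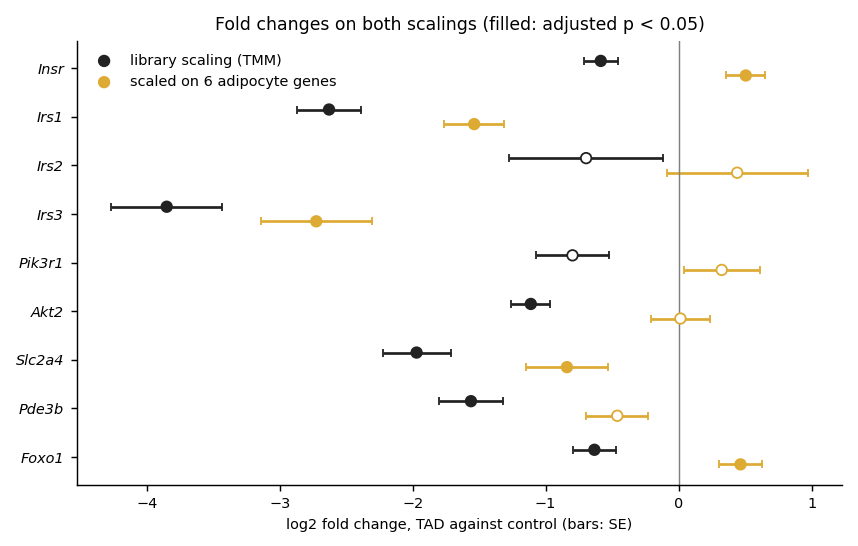
Log2 fold change (TAD against control, x axis) of each gene with its SE, under library scaling (black) and with libraries scaled on 6 adipocyte genes (yellow); filled points have an adjusted p below 0.05. Irs3 and Irs1 lie furthest to the left on both scales, whereas Akt2 moves from -1.11 to 0.01.

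Per gene length, in FPKM (fragments per kilobase of a gene, scaled for depth), the order of the 9 levels differed between the groups. In the controls it ran from Pde3b (35.2 ± 4.47 FPKM) and Slc2a4 (32.1 ± 6.55) through Irs2 (27.1 ± 18.1), Akt2 (21.6 ± 1.13), Pik3r1 (19.8 ± 6.53), Insr (12.6 ± 0.680), Foxo1 (9.50 ± 1.41) and Irs3 (9.43 ± 3.97) to Irs1 (6.44 ± 1.38). Of the neighbours in that order, Pik3r1 lay above Insr and Insr above Foxo1 in every library, and the others overlapped. In TAD it ran from Irs2 (17.1 ± 3.16 FPKM) through Pde3b (12.2 ± 4.01), Pik3r1 (11.7 ± 1.20), Akt2 (10.2 ± 1.66), Insr (8.57 ± 1.01), Slc2a4 (8.39 ± 2.46) and Foxo1 (6.26 ± 1.09) to Irs1 (1.06 ± 0.217) and Irs3 (0.666 ± 0.124). Here Foxo1 lay above Irs1 and Irs1 above Irs3 in every library. By the means, Slc2a4 thus went from rank 2 to rank 6, and Irs1 and Irs3 stayed lowest. Single libraries did not all follow the means. In control 5, Irs3 (15.2 FPKM) lay above Insr (13.2 FPKM), and in TAD the levels of Slc2a4 and Insr overlapped.

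The composition of gene families was compared next. Slc2a4 made up 92.5, 91.8, 89.4, 89.2 and 94.0% of the summed FPKM of Slc2a4 and Slc2a1 (GLUT1, the basal glucose transporter) in the controls and 24.6, 53.6 and 48.6% in TAD. The share was 91.4 ± 2.06% in the controls and 42.3 ± 15.5% in TAD, without overlap (exact two-sided permutation p = 0.0179, the smallest this design can give; adjusted over 3 shares 0.0268). Slc2a1 itself rose from 21.8 ± 3.17 to 90.9 ± 45.5 CPM (log2 fold change 2.06 ± 0.29, adjusted p = 0.0018, edgeR). Macrophage and neutrophil markers rose in the same TAD libraries, and their part in the Slc2a1 level was not tested.

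Irs3 made up 24.2, 44.8, 8.19, 15.9 and 35.4% of the summed FPKM of Irs1, Irs2 and Irs3 in the controls and 3.73, 2.95 and 4.03% in TAD. These shares did not overlap, but the controls were far apart, and the exact permutation p of 0.0536 (adjusted 0.0536) missed the threshold. Irs2 made up 57.5 ± 21.9% of the 3 substrates in the controls and 90.5 ± 2.36% in TAD.

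**Figure D3:**
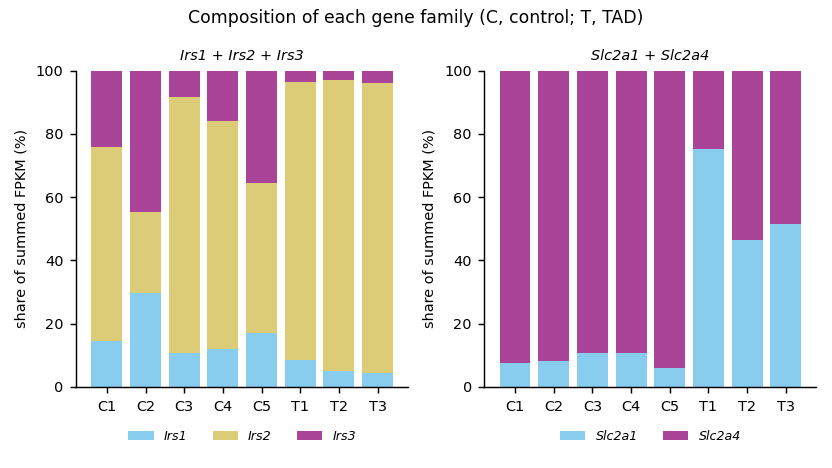
Share of each gene in the summed FPKM of its family (y axis, percent) in every library, C1 to C5 being the controls and T1 to T3 the TAD libraries. Slc2a4 holds at least 89.2% of its pair in every control and at most 53.6% in TAD, and Irs3 is at most 4.03% of the substrates in TAD.

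Other genes of the pathway were taken as 7 lists of 112 tested genes in all, of which 39 fell and 16 rose. Over all genes tested 11.8% were called lower and 15.2% higher, so the number that rose is near the background. The median log2 fold change of the 112 genes was -0.33. On the adipocyte scale 3 of them were called lower and 59 higher (median 0.80), against 1.07% and 68.8% of all genes. Among receptors and adaptors other than those above, 6 of 13 fell and 2 rose (median -0.51). The genes with the largest changes were Ide, the insulin-degrading enzyme (log2 fold change -1.10 ± 0.18, adjusted p = 0.0036, edgeR), and the adaptor Sh2b2 (-1.02 ± 0.21, 0.0091). Of 21 PI3K, AKT and mTOR genes, 4 fell and 1 rose (median -0.17). The gene that rose was Pik3cd, the PI3K catalytic subunit of leukocytes (1.92 ± 0.25, 0.0013), while Tsc2, an inhibitor of mTOR, fell (-1.03 ± 0.15, 0.0019). Mtor also fell (-0.84 ± 0.23, 0.0290), although the call was lost without control 3, 4 or 5 and without TAD 1 or 2 (adjusted p = 0.0562 to 0.101, edgeR).

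In the glucose uptake list, 4 of 15 genes fell and 4 rose (median -0.05), against 11.8% called lower and 15.2% higher of all genes. Slc2a3, the GLUT3 transporter of neurons and leukocytes, had 6.71 to 16.4 CPM in the controls and 50.3, 238.6 and 16.5 CPM in TAD (3.24 ± 0.71, adjusted p = 0.0117, edgeR). Its TAD mean rested on TAD 2, the library with the highest sum of neural markers, without which the log2 fold change was 1.63. The part of neural RNA in the Slc2a3 level was not tested. Slc2a3 was called with each library left out (adjusted p at most 0.0339, edgeR), but not by limma on log2(FPKM + 1) (1.71, adjusted p = 0.0514). Sort1, a sorting receptor of GLUT4 vesicles, fell (-1.40 ± 0.15, 0.0006).

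Of the negative regulators, 6 of 20 rose and 3 fell (median 0.16). Over all genes tested, too, more were called higher than lower (15.2% and 11.8%). Socs3, a cytokine-induced inhibitor of the receptor and its substrates, had 11.9, 21.6, 11.9, 8.51 and 15.7 CPM in the controls and 373, 82.3 and 209 CPM in TAD. It rose in all 3 TAD libraries (3.99 ± 0.47, adjusted p = 0.0009, edgeR), and by 3.39 without TAD 1. Inpp5d, a phosphatase of blood cells that removes the PI3K product, rose 4.55-fold in mean CPM (adjusted p = 0.0003, edgeR), and Grb14, an inhibitor of the receptor, fell (-1.58 ± 0.24, 0.0023). Of the macrophage markers, 6 of 10 rose, with none at 0 in any library. Of the neutrophil markers, 6 of 8 rose and 1 had a negative log2 fold change. Mmp8, Ngp and Camp were each at 0 in 1 control, and Camp was also at 0 in 1 TAD library. Their part in the higher Socs3, Inpp5d, Pik3cd and Slc2a3 levels was not tested.

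Downstream of the pathway most changes were decreases on library scaling. In the cyclic AMP and lipolysis list 8 of 15 genes fell and 1 rose (median -1.02). Of all genes tested, 11.8% were called lower and 15.2% higher, and the median of the 12 adipocyte markers was -1.06. On the adipocyte scale 1 of the 15 was called lower and 4 higher (median 0.08), against 1.07% and 68.8% of all genes. Adrb3, the beta-3 adrenergic receptor of fat cells, had 271 to 325 CPM in the controls and 11.9, 32.0 and 112 CPM in TAD (-2.50 ± 0.63, adjusted p = 0.0202, edgeR). Without TAD 3 its log2 fold change was -3.74 and without TAD 2 it was no longer called (-2.25, adjusted p = 0.0561, edgeR). Prkar2b, a regulatory subunit of protein kinase A, fell (-2.01 ± 0.31, 0.0027), and the phosphodiesterase gene Pde4b rose (1.36 ± 0.20, 0.0022). Of FOXO genes and their targets, 6 of 17 fell and 2 rose (median -0.61). Scaled on adipocyte genes, 1 of the 17 was called lower and 6 higher (median 0.44). Pck1, a gluconeogenic and glyceroneogenic enzyme repressed by insulin, fell (-1.98 ± 0.42, 0.0098), as did the transcription factor Klf15 (-1.61 ± 0.16, 0.0005), and the stress gene Gadd45a rose (2.07 ± 0.34, 0.0033). The values of Adrb3 and Gadd45a are uncertain, since 24.9% and 19.1% of their exon bases overlap a gene on the opposite strand.

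The lipogenic targets, which insulin induces, held the largest share of decreases among the 7 lists. Of 11 genes 8 fell, and none rose by edgeR or at an unadjusted p below 0.05, since all 11 log2 fold changes were negative (median -1.78). This compares with 11.8% called lower over all genes tested. Scaled on adipocyte genes, 1 of the 11 was called lower and 0 higher (median -0.57), against 1.07% and 68.8% of all genes. Thrsp, a lipogenic factor, had 984 to 1857 CPM in the controls and 24.8, 108 and 266 CPM in TAD (-3.35 ± 0.70, adjusted p = 0.0095, edgeR). Fasn, fatty acid synthase, had 9997 to 28094 CPM in the controls and 560, 1035 and 6036 CPM in TAD (-2.68 ± 0.81, 0.0403). Pnpla3, a lipid droplet acylhydrolase, had 89.2 to 172 CPM in the controls and 5.59, 8.68 and 45.4 CPM in TAD (-2.55 ± 0.68, 0.0250). TAD 3 was the highest TAD library for all 3, and without it the log2 fold changes were -4.36, -4.35 and -4.03. The Fasn call was lost without any other single library (adjusted p = 0.0512 to 0.0968, edgeR), and the Pnpla3 call was lost without control 5, TAD 1 or TAD 2 (0.0524 to 0.0597).

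**Figure D4:**
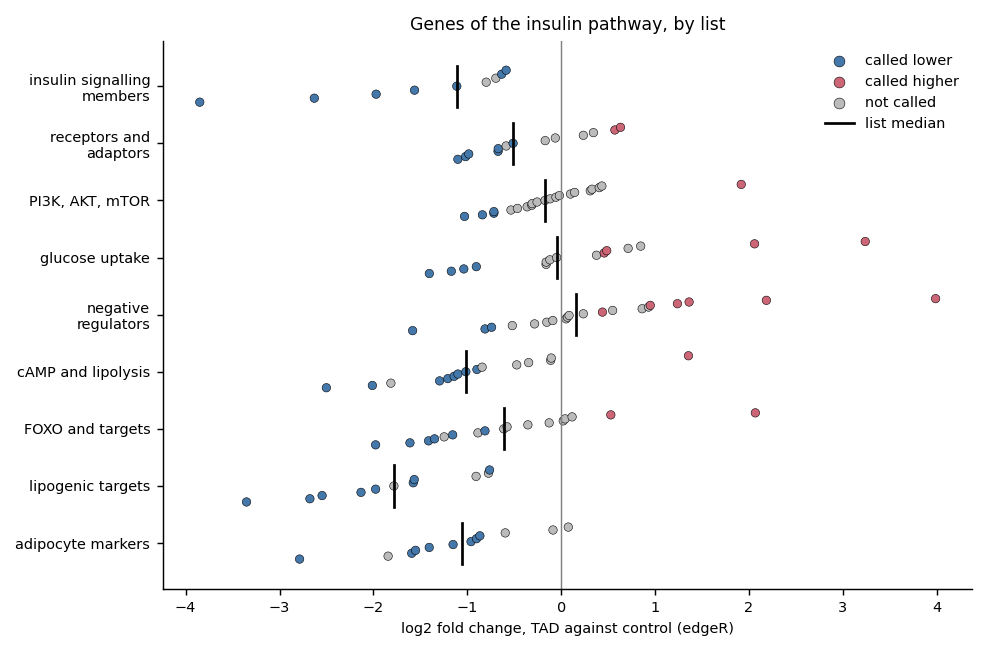
Log2 fold change (TAD against control, x axis) of every tested gene in the 9 insulin signalling genes, the 7 pathway lists and the adipocyte markers, with blue for genes called lower, red for genes called higher, grey for the rest and a black line at each median. The medians run from -1.78 for the lipogenic targets to 0.16 for the negative regulators, and that of the 9 genes is -1.11.

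For each of the 9, the genes most like it over the 8 libraries were found among genes with a mean of at least 10 CPM, by the root mean square difference of log2 CPM after centring each gene. The libraries are shared by all genes compared, and the values describe them only. The differences were not divided by a gene's own spread, so their sizes cannot be compared between members. The smallest were those of Insr, to Arhgap35 (0.0582) and Sod1 (0.0626), and of Akt2, to Smim10l1 (0.0664). Foxo1 was closest to Aph1b (0.0926) and Pdcd4 (0.0949), and Pde3b to Ift172 (0.132) and Nudt12 (0.147). Slc2a4 was closest to Clmn (0.201) and Acad11 (0.214), and Pik3r1 to Elovl5 (0.202) and Gpam (0.208). Irs3 was closest to Dgat2 (0.308) and Slc25a42 (0.456), whose mean CPM fell 11.9-fold and 11.6-fold. Irs1 was closest to Fmo5 (0.336) and A530016L24Rik (0.344). Irs2, with its wide spread in the controls, was closest to Sik1 (0.301), which had 82.1, 27.7, 159, 143 and 109 CPM in controls 1 to 5, lowest in control 2 and highest in control 3 as Irs2 was. The next gene, Phactr1, was further away (0.478).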

How the data were processed

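Sequencing libraries came from total RNA (TRIpure extraction, NEBNext Ultra kit), per the labels' protocols. Tools named in the submitters' processing notes are HTSeq, HISAT2, fastp 0.23.1 and bcl2fastq 2.19. They also name the human builds GRCh38 and hg38, whereas 13821 of the 13839 gene identifiers occur in the mouse annotation GENCODE M21. Neither the mouse build nor the strandedness is given in the sources used here. Per the file headers, the authors deposited 1 table that gives, per gene and library, FPKM (a level per kilobase, scaled for depth) and raw counts.

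The members and all gene lists were chosen with earlier results of these data known. Counts were filtered with filterByExpr, scaled by TMM and 13701 genes were tested by quasi-likelihood in edgeR 4.0.16 under R 4.3.3, with p-values adjusted after Benjamini and Hochberg and genes called below 0.05. The SE was derived from the log2 fold change and the F statistic. The script was tested on simulated data. CPM used TMM-scaled totals, and log2 CPM a prior count of 2. In a further fit the libraries were scaled so that 6 adipocyte genes had an equal mean log2 CPM. Shares of FPKM were tested by exact two-sided permutation. Named genes were the 9 members, the called genes of each list with the largest changes (at most 3), their nearest relatives Igf1r, Akt1 and Slc2a1, the adipocyte reference genes, and the 2 genes most like each member; a gene that this rule names, and 1 of 3 planned shares, are not reported here. Of the listed genes, Irs4 and Igfbp1 and 4 neural, 1 cardiomyocyte and 9 skeletal muscle markers were not analysed here.

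Alternatives were DESeq2 1.42.0, its size factors or upper-quartile scaling in edgeR, and no count filter. Further ones were limma 3.58.1 on log2(FPKM + 1) and log2(FPKM + 0.1) at a minimum mean of 0.5 FPKM, and on log2(FPKM + 1) with no minimum. Other adipocyte references, shares of counts, a replicate block and leaving out each library were also tried. Finally, 2 sets were left out: control 1 with TAD 1, and controls 1 and 2 with TAD 2. These sets do not hold every library with heart RNA, since control 4 (cardiomyocyte markers summing to 3262 CPM) was kept in each. Precision is limited by the 3 TAD libraries (biological coefficient of variation 41.6%).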

Additional observations from a re-analysis of the deposited data

Results flagged for a closer look

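The levels of the named genes and the 2 shares in the controls were screened, 57 sets of 5 values in all, and 2 held a library far from the other controls. The 3 TAD libraries are too few for this screen. Chance flags about 1 in 20 groups. Irs1 had 39.2 CPM in control 1, below the other 4 controls, and the gap to the next control was 0.719 of the range. Fasn had 28094 CPM in control 5, above the other controls, with a gap of 0.746 of the range.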

How the results depend on the processing

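Over 18 alternatives Irs1, Irs3, Akt2, Slc2a4 and Pde3b were called lower in all 18, Insr in 16, Foxo1 in 13, Pik3r1 in 2 and Irs2 in 0 (adjusted p from 0.0588 to 0.924). The sources used here do not state whether equal replicate numbers pair the libraries. Correlations of deviations were 0.427, 0.0972 and 0.544 for equal numbers and -0.652 to 0.457 for unequal ones. Pairing was therefore not settled. With the number as a replicate block, 5 of the 9 genes, 20 pathway genes lower (39 without it) and 8 higher (16) were called, and Insr (-0.55, adjusted p = 0.142, edgeR) and Foxo1 (-0.51, 0.130) were not. Controls 4 and 5 have no TAD library of the same number, so they did not inform the group difference in that fit. Without control 1 and TAD 1 the pathway counts were 24 lower and 10 higher, and without controls 1 and 2 and TAD 2, 25 lower. Leaving out each library in turn gave 29 to 39 lower and 11 to 14 higher. On the adipocyte scale the number of the 9 genes called higher (2) became 4 with Adipoq alone as reference, 0 with the replicate block, 1 without controls 1 and 2 and TAD 2, and 1 to 2 with each library left out, where 2 to 4 were called lower. Akt2 on that scale turned to -0.072 with the block and ran from -0.27 to 0.20 with each library left out. Over all 15 alternatives Akt2 ran from -0.27 to 0.59, and it was 0.45 with Adipoq alone. Pde3b turned to 0.036 with Plin1 alone. The difference in the Slc2a4 share (-49.1 percentage points) was -40.0 (exact permutation, adjusted p = 0.1) without control 1 and TAD 1, -54.2 (0.15) without controls 1 and 2 and TAD 2, and -54.7 to -40.3 with each library left out. The difference in the Irs3 share (-22.1) was -13.5 on raw counts, -16.0 without controls 1 and 2 and TAD 2, and -26.5 to -17.3 with each library left out. With fewer libraries the smallest p these tests can give is larger. Of genes not called, Phactr1 turned to 0.0071 and Sik1 to 0.038 with the block, and with each library left out Phactr1 ran from -0.46 to 0.043 and Plin4 from -0.32 to 0.11. Except as named, the causes were not tested.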
